A study of Homo sapiens with 6 samples.

Results

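The genes described here encode receptor tyrosine kinases other than the EGFR family. They are 46 genes in 15 subfamilies, taken by symbol from a count table of 56478 gene rows, and all 46 had a row. Of these, 36 had enough counts to be tested, and 10 did not pass the filter on low counts.

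Receptor tyrosine kinases are single-pass membrane proteins (dimers joined by disulfide bonds in the insulin receptor branch). A ligand outside the cell brings kinase domains together, they phosphorylate each other, and adaptor proteins then dock and start signalling through RAS, PI3 kinase and phospholipase C gamma. Phosphatases and ubiquitin ligases end the signal. In breast epithelium MET, DDR1 and several EPH receptors are known from epithelial cells, whereas AXL, FGFR1, PDGFRB and DDR2 are often described in cells with mesenchymal features. PTK7, RYK, EPHA10 and EPHB6 carry kinase domains regarded as inactive.

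RNA was sequenced from cultures of BT20, an established cell line of human breast carcinoma of the triple negative kind, kept in medium with fetal bovine serum and with no further treatment. The control group carried the hairpin construct pLK0-shControl (shControl, n = 3), and the other group carried pLK0-shCK5-425222, a hairpin against cytokeratin 5, the product of KRT5 (shCK5-22, n = 3). Each arm rests on 1 hairpin, so effects of KRT5 loss and of this hairpin cannot be told apart. Nothing in the labels says whether a replicate is a culture of its own, and the p-values therefore reflect a spread between libraries that may be technical.

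Libraries held between 47703937 and 65541734 counts. KRT5 stood at 241 ± 8.58 CPM (counts per 1000000, mean ± SD) in shControl and at 22.6 ± 1.52 CPM in shCK5-22, 10.7-fold lower (adjusted p = 1.23e-20). Within groups, shCK5-22 replicate 1 stood apart from replicates 2 and 3, with chi-square values per degree of freedom of 33.7 and 19.8, where the other pairs of a group lay between 3.47 and 5.08. All 8 epithelial markers examined passed the filter. KRT19, CDH1, GRHL2, ESRP1 and CLDN4 fell, by 0.18 to 0.63 on the log2 scale. The share lower was 62.5%, beside 16.8% of all genes tested and 22.2% of those with at least 5 CPM. EPCAM, at 234 and 236 CPM, KRT8 and KRT18 did not pass the threshold. Values from 1 to 10 were even in 89.7% of cases, a pattern left when both mates of a pair are counted, so counts may overstate the number of independent fragments.

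A zero in this table is not always a level. Among 640 protein-coding genes whose exons all lie inside the span of an opposite-strand gene without touching its exons, 94.5% had 0 counts in every library, against 11.1% of 10158 genes with no exon base inside another gene. Fold changes compare the same counted bases in all libraries. Levels are compared between genes per kilobase (kb) of exon outside the spans of other genes, a measure chosen after this was seen.

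Receptors that rose were AXL, FGFR1, MERTK, PDGFRB and ROR2. Those that fell were PTK7, IGF1R, EPHA10, EPHB3, EPHA1, FGFR4, EPHB2, MET, FGFR2, MST1R, EPHA4, ROR1 and DDR1. In all 5 of the 36 tested were higher (13.9%) and 13 lower (36.1%) in the knockdown, and for 18 the test was not passed. Over all 18008 genes tested, 34.2% passed the threshold of 0.05 on the adjusted p, 17.4% higher and 16.8% lower. The share of higher receptors was thus near the background, and the share of lower ones above it. Since the receptors were chosen with earlier results of these data known, this is a description and not a test. The median log2 fold change was -0.07 for the receptors and -0.01 for all genes tested.

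Changes are detected more easily in well expressed genes. Among the 19 receptors with a mean of at least 5 CPM, 2 rose and 11 fell, with a median log2 fold change of -0.26. Of the 10459 genes at that level, 24.8% were higher and 22.2% lower, with a median of 0.01. Levels of the 2 groups did not overlap for 19 of the 36 receptors (52.8%), where 45.1% of all genes tested showed no overlap. Without shCK5-22 replicate 1, 4 receptors were higher and 13 lower.

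**Figure D1:**
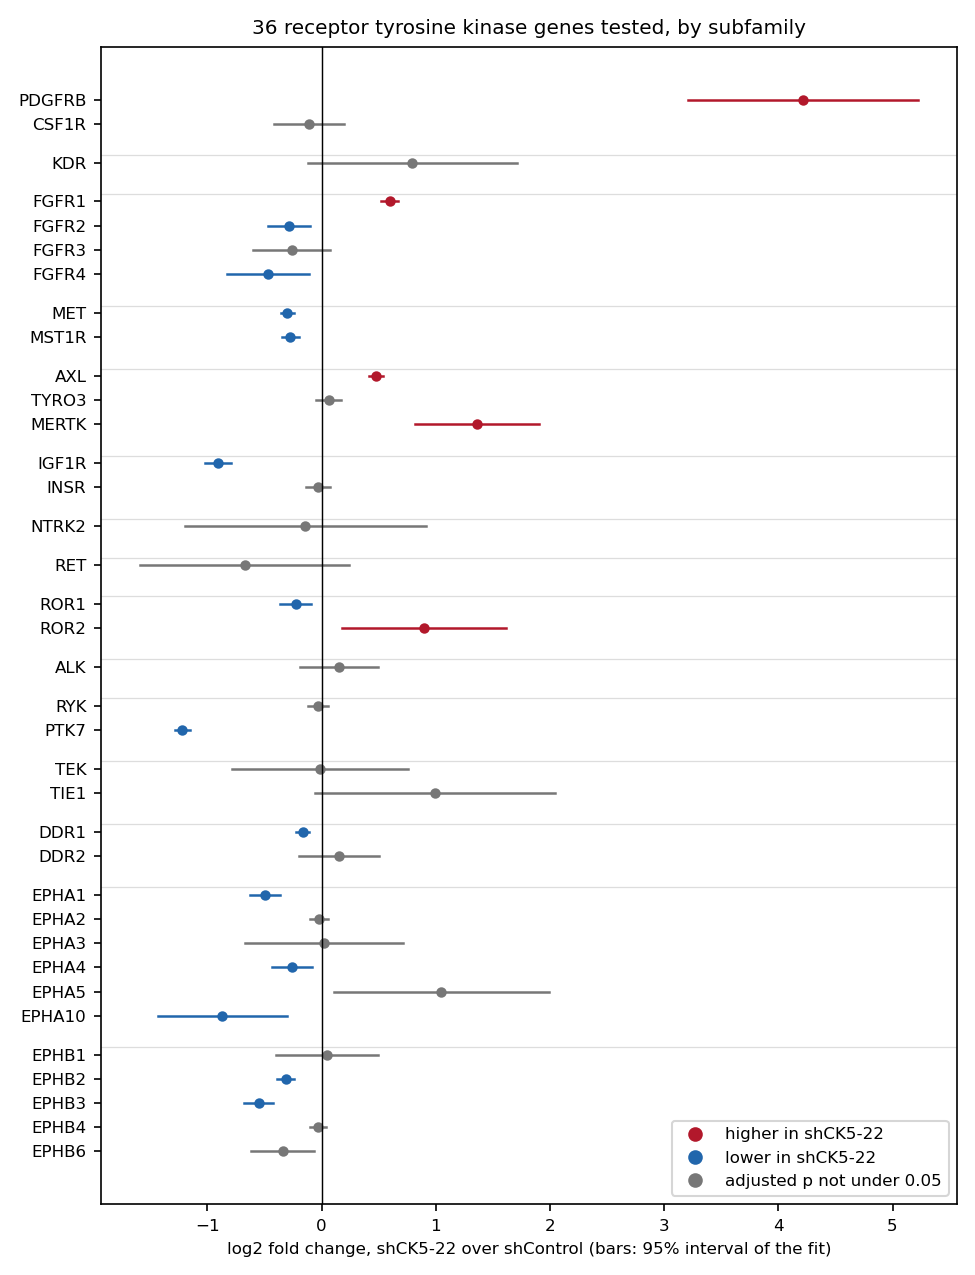
Log2 fold change of shCK5-22 over shControl for the 36 receptors tested, grouped by subfamily from top to bottom, with the 95% interval of the fit as a bar. The 5 red points lie above 0, the 13 blue points below 0, and the widest bars belong to receptors with few counts such as PDGFRB, RET and NTRK2.

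A few receptors held most of the receptor RNA. Per kb of exon in shControl, EPHA2 stood highest at 154 ± 7.16 CPM per kb and AXL next at 144 ± 3.49, above EPHA2 in 1 of 3 libraries. DDR1 and MET followed at 82.1 ± 1.00 and 81.8 ± 0.483 CPM per kb and were not apart beyond their spread. EPHB4 (37.0), MST1R (29.3), PTK7 (28.6), RYK (21.1) and FGFR1 (11.2) came after them, in CPM per kb, of which MST1R and PTK7 lay within 1 SD of each other. In shCK5-22 the order at the top was AXL, at 199 ± 5.81 CPM per kb, and EPHA2, at 152 ± 6.92, and PTK7 had moved from rank 7 to rank 9.

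The share of the summed receptor level per kb that belonged to AXL was 21.5%, 23.1% and 22.3% in the shControl libraries and 29.8%, 32.0% and 31.1% in the shCK5-22 libraries. These ranges do not overlap, and the exact two-sided permutation test gave p = 0.1, the smallest that 3 against 3 libraries allow. AXL, MET, EPHA2 and DDR1 together held 71.6% ± 0.194 in shControl and 76.2% ± 0.334 in shCK5-22 (SD, n = 3, exact permutation p = 0.1). Shares of this kind are not independent, since a higher AXL lowers the share of every other receptor. With all exons as length, the 4 receptors held 73.5% and 77.7%.

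**Figure D2:**
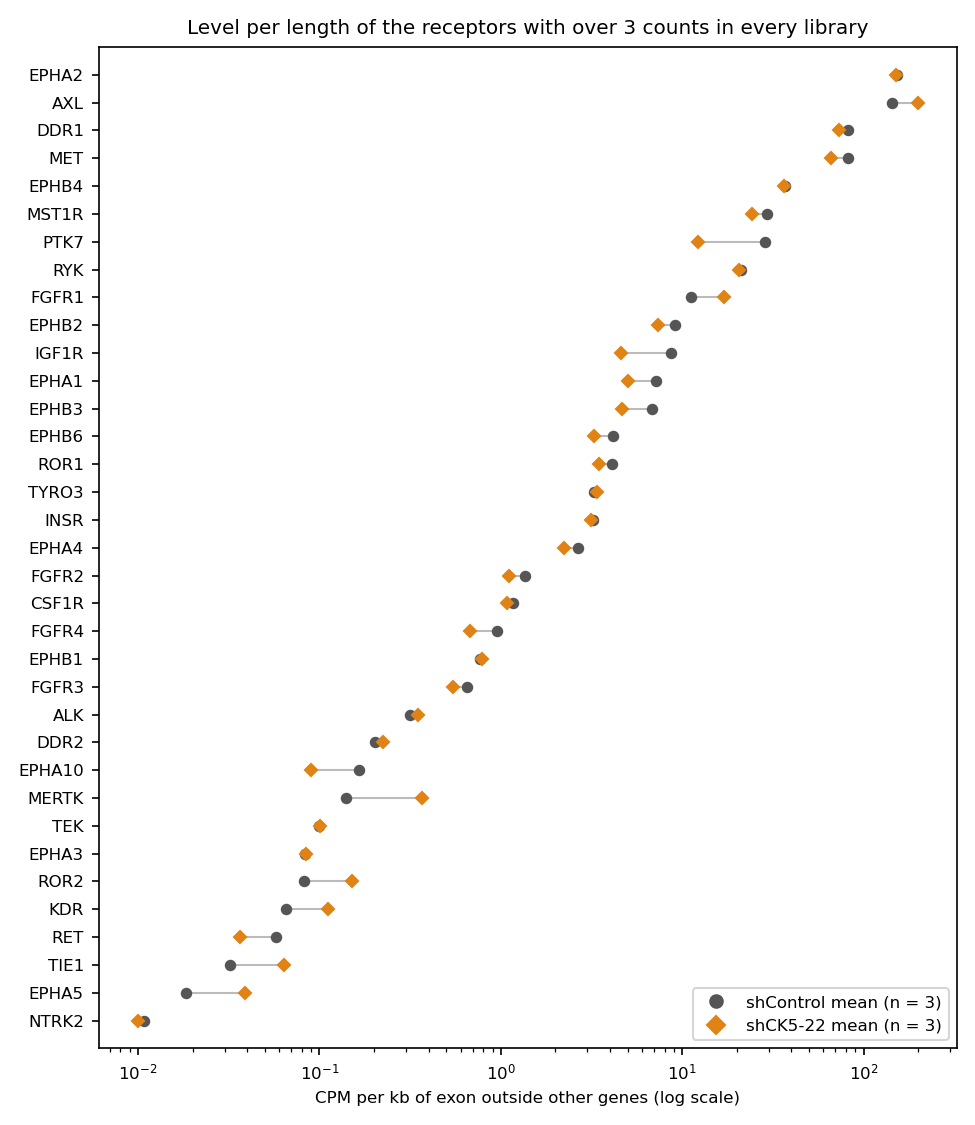
Mean level in shControl (circles) and shCK5-22 (diamonds), in CPM per kb of exon outside other genes on a log axis, for the 35 receptors with over 3 counts in every library. EPHA2, AXL, DDR1 and MET lie at the top between 66.4 and 199 CPM per kb, and the longest grey lines among well expressed receptors belong to PTK7, IGF1R and FGFR1.

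Promoter windows are shown for reference, since RNA levels do not say which sequence a change runs through. They belong to receptors past the threshold with large changes and a mean of at least 5 CPM. They were chosen after the values were seen: AXL for the rises, and PTK7, IGF1R and EPHB3 for the falls. FGFR1, the other well expressed receptor that rose, had no matched window. Each is the stretch of 250 bases before the first start that RefSeq lists for the gene (GRCh38.p14, plus strand, read from 5′ to 3′). Capitals mark matches, on either strand, to the GC box bound by Sp1 (GGGCGG) and to the E-box that ZEB factors bind (CAGGTG). AXL lies at chr19:41218973-41219222, PTK7 at chr6:43076064-43076313, IGF1R at chr15:98648289-98648538 and EPHB3 at chr3:184561535-184561784.
AXL: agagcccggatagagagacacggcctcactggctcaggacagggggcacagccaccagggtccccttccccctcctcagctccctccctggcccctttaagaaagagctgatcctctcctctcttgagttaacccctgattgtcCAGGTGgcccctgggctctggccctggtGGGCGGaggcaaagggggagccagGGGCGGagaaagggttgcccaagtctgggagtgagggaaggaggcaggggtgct
PTK7: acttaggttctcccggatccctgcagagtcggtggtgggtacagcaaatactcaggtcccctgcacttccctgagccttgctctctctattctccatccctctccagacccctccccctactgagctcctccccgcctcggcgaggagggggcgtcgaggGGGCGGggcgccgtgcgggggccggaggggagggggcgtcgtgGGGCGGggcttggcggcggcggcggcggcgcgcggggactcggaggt
IGF1R: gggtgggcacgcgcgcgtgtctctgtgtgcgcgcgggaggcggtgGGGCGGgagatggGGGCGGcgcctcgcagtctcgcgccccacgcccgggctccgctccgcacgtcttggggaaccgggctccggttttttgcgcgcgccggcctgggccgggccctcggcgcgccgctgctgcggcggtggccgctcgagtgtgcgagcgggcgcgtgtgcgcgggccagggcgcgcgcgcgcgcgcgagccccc
EPHB3: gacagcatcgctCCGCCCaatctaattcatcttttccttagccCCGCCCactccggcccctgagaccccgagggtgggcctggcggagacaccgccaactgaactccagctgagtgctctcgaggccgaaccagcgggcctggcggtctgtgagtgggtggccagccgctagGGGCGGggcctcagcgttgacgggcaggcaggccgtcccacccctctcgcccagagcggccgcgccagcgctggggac

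AXL had 2 GC boxes and 1 E-box in this window, PTK7 and IGF1R had 2 GC boxes each, and EPHB3 had 3. GC boxes were found in the windows of all 4 risen receptors with a RefSeq window and of 10 of the 12 fallen ones, against 42.3% of 27305 gene windows. The E-box was found in AXL and in 4 fallen receptors (EPHB2, MST1R, FGFR4 and EPHA1), against 17.5% of gene windows. The gene windows were not limited to genes expressed here, and the receptors that did not pass the test were not counted. These shares therefore do not show a trait of the changed receptors. The AP-1 letters TGANTCA (6.60% of gene windows) and the TEAD letters GGAATG (11.9%) were in 0 of these windows, which says nothing of binding elsewhere. No motif overlapped another in the 4 windows printed. In all, 42 of the 46 receptors matched a RefSeq window.

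The TAM receptors AXL, TYRO3 and MERTK bind the vitamin K dependent proteins GAS6 and protein S and serve in the uptake of dying cells, in damping inflammation and, for AXL, in invasion and drug tolerance of carcinoma cells. AXL (chromosome 19, 41219203 to 41261766, GRCh38) had 659.8, 692.0 and 682.4 CPM in the shControl libraries and 912.9, 967.3 and 946.2 CPM in the shCK5-22 libraries. Every knockdown library was above every control library. The level was 1.39-fold higher (log2 fold change 0.47, SE 0.0295, adjusted p = 5.41e-11). MERTK (chromosome 2, 111898479 to 112029561) had 0.416, 0.736 and 0.698 CPM in shControl and 1.21, 1.54 and 2.12 CPM in shCK5-22, on 20 to 112 counts. It rose 2.57-fold (log2 1.36, SE 0.26, adjusted p = 0.0003) from a level far below that of AXL. TYRO3 had 30.9, 28.6 and 28.4 CPM in shControl and 30.5, 30.2 and 30.8 CPM in shCK5-22. Its groups overlapped, with an interval of the log2 fold change from -0.05 to 0.17 (adjusted p = 0.41).

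Both ligands of the TAM receptors rose as well. GAS6, which binds all 3, went from 24.4 ± 0.829 to 35.5 ± 1.36 CPM (1.45-fold, adjusted p = 5.47e-08), although 80.3% of its exon bases lie inside an opposite-strand gene. PROS1, the gene of protein S, which binds MERTK and TYRO3, went from 1.91 ± 0.403 to 3.14 ± 0.377 CPM (1.65-fold, adjusted p = 0.00191). AXL made up 97.7% ± 0.129 of the TAM level per kb in shControl and 98.2% ± 0.0681 in shCK5-22.

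**Figure D3:**
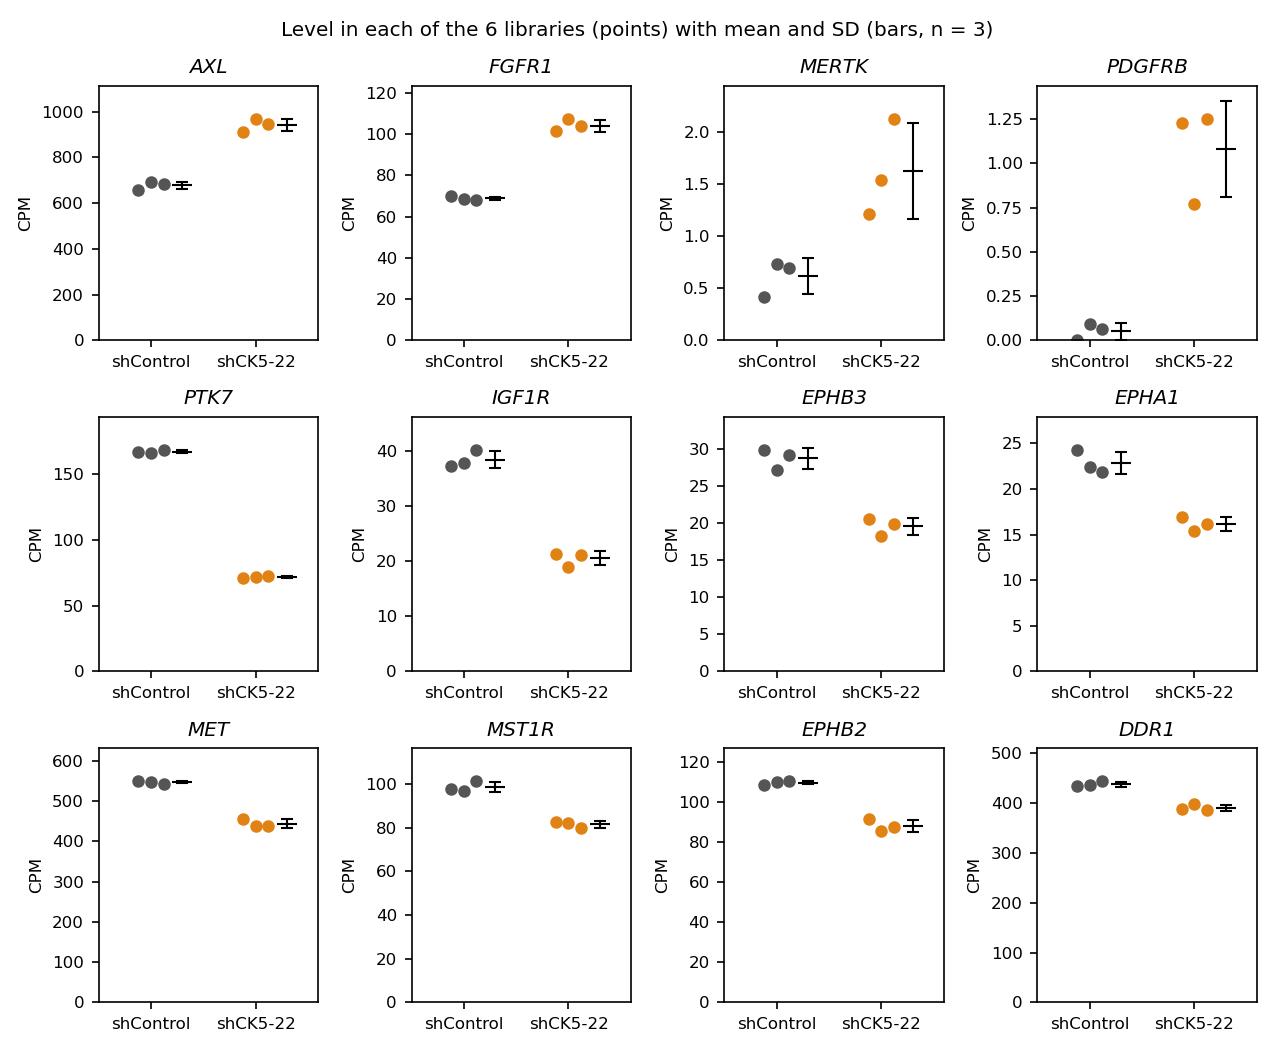
CPM of 12 receptors past the threshold in each library (points, 3 shControl in grey and 3 shCK5-22 in orange) with the group mean and SD, on axes from 0. The groups do not overlap in any panel, with AXL, FGFR1, MERTK and PDGFRB higher in shCK5-22 and the other 8 lower, and PDGFRB and MERTK are on the lowest scales.

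The FGF receptors bind fibroblast growth factors together with heparan sulfate and signal through the docking protein FRS2. FGFR1 (chromosome 8, 38400215 to 38468834) had 69.77, 68.49 and 68.22 CPM in shControl and 101.4, 107.2 and 103.7 CPM in shCK5-22. The groups were far apart, and the level was 1.51-fold higher (log2 0.60, SE 0.0353, adjusted p = 2.45e-11). FGFR2, a receptor of epithelial cells (chromosome 10, 121478334 to 121598458), had 9.07, 8.43 and 9.80 CPM and then 7.70, 7.29 and 7.38 CPM. It fell by 0.29 on the log2 scale (adjusted p = 0.015), a call lost without shControl replicate 3 (0.102).

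FGFR4 (chromosome 5, 177086886 to 177098144) had 3.72, 2.42 and 2.95 CPM in shControl and 2.12, 2.51 and 1.89 CPM in shCK5-22, a fall by 0.47 on the log2 scale (adjusted p = 0.0399). Its groups overlapped, and the call was lost with limma-voom (0.0777) and without any one of shControl replicates 1 and 3 and shCK5-22 replicates 1 and 3 (0.0695 to 0.23). FGFR3 stood at 2.90 and 2.42 CPM (log2 interval -0.60 to 0.07, adjusted p = 0.232). FGFR1 held 78.3%, 81.2% and 78.1% of the FGFR level per kb in shControl and 87.1%, 88.3% and 88.4% in shCK5-22, ranges that do not overlap (exact permutation p = 0.1).

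Among 13 FGF genes examined, 6 passed the filter, 2 rose (33.3%) and 0 fell, beside 17.4% and 16.8% of all genes tested. FGF5, a secreted ligand, had 0.598 and 1.34 CPM, and FGF13, which stays inside the cell, had 4.54 and 5.89 CPM. Genes of proteins that bind FGFs outside the cell changed in both directions or did not pass the test. FGFBP1, a carrier that releases FGFs from the matrix, fell 3.97-fold from 4.20 ± 0.711 to 1.05 ± 0.297 CPM (adjusted p = 7.36e-08). The heparan sulfate proteoglycan genes GPC1 and HSPG2 fell by 0.57 and 0.50, and SDC1 by 0.20, while SDC4 rose by 0.26. FGFRL1, a receptor-like protein without a kinase domain, had 78.1 and 77.9 CPM (adjusted p = 0.965).

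PDGFRB, the beta receptor of platelet-derived growth factors and a gene of fibroblasts and pericytes (chromosome 5, 150113837 to 150155872), was nearly silent in shControl. It had 0, 6 and 4 counts in the control libraries and 80, 46 and 66 counts in the knockdown libraries. Mean levels were 0.0518 and 1.08 CPM, a fitted 18.6-fold difference (log2 4.22, SE 0.483, adjusted p = 5.81e-07). The size is uncertain at 10 counts in all 3 controls, and the log2 fold change lay between 3.75 and 4.84 over the alternatives that tested it, highest without shControl replicate 2. Of 10 other fibroblast and pericyte markers, 7 passed the filter, 1 rose (LUM, 14.3%) and 3 fell (COL1A1, FAP and NOTCH3, 42.9%). Over all genes tested the shares were 17.4% and 16.8%. The summed level of the 10 markers was 83.5 to 91.0 CPM in shControl and 58.4 to 62.3 CPM in shCK5-22. Nearly all of that sum came from NOTCH3 (52.3 and 29.6 CPM) and COL1A1 (32.0 and 27.0 CPM), and each of the 8 others had under 2 CPM on average in both groups. DCN had at most 2 counts and THY1 had 0, though all THY1 exon bases lie inside another gene. Whether such cells play a part in the PDGFRB difference was not tested, and in bulk RNA a change in few cells and a change per cell cannot be told apart.

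Of the PDGF ligand genes, PDGFB, which binds the beta receptor, fell from 89.5 ± 2.52 to 73.4 ± 0.87 CPM (adjusted p = 1.88e-06). PDGFC rose from 49.5 ± 0.786 to 63.6 ± 3.20 CPM (adjusted p = 1.07e-06). PDGFA had 10.8 and 8.38 CPM and PDGFD 1.00 and 0.569 CPM, and both passed the test as lower, PDGFD not without shControl replicate 1 or 3 or shCK5-22 replicate 1 (0.0745 to 0.0907). PDGFRA was listed at 0 in every library, with 62.2% of its exon bases inside another gene. For its other exons the floor of 3 counts is up to 0.063 CPM, a bound that is too low if both mates of a pair were counted.

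CSF1R, the receptor of macrophage colony stimulating factor, had 4.65 ± 0.584 CPM in shControl and 4.32 ± 0.962 in shCK5-22 (adjusted p = 0.621, log2 interval -0.41 to 0.20). Its ligand gene CSF1 rose 2.95-fold from 4.12 ± 0.181 to 12.2 ± 0.965 CPM (adjusted p = 3e-11), the largest rise among the ligands with a mean of at least 1 CPM. KIT had 0 to 2 counts and FLT3 1 to 14 counts per library and were not tested. KITLG, the ligand of KIT, fell from 39.3 ± 2.25 to 29.8 ± 3.32 CPM (adjusted p = 0.000428). Leukocyte markers were low: 3 of 10 passed the filter, and 1 of these rose (ITGAM, 33.3%, beside 17.4% of all genes tested). The summed level of the 10 was 1.71 to 2.56 CPM in shControl and 2.85 to 3.48 CPM in shCK5-22. CD3D, MS4A1 and AIF1 were at 0.

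The VEGF receptors and the pair TEK and TIE1, known from endothelial cells, were all under 1 CPM. KDR had 0.221 and 0.377 CPM (adjusted p = 0.181), TIE1 0.128 and 0.252 CPM (adjusted p = 0.142) and TEK 0.479 and 0.483 CPM (adjusted p = 0.984). For KDR and TIE1 the groups did not overlap, on 8 to 32 and 6 to 17 counts per library. Of KDR exon bases 44.3% lie inside an opposite-strand gene, so its CPM may understate its level. FLT1, with 0 to 8 counts, and FLT4, with 0 to 5, were not tested. VEGFA, the main ligand of KDR, had 148 and 151 CPM (adjusted p = 0.603). VEGFB, a ligand of FLT1, fell by 0.14, a call lost without shControl replicate 2 (0.15) or shCK5-22 replicate 1 (0.0969). PGF, also a ligand of FLT1, rose 3.82-fold from 0.281 ± 0.034 to 1.08 ± 0.257 CPM (adjusted p = 3.62e-05). ANGPT1, an agonist of TEK, had 4, 2 and 4 counts in shControl and 36, 20 and 14 counts in shCK5-22 (log2 2.72, SE 0.571, adjusted p = 0.000751). ANGPT4, another TEK ligand, rose 1.45-fold from 1.78 to 2.58 CPM (adjusted p = 0.0251), a call lost without shControl replicate 1 or 2 or shCK5-22 replicate 3 (0.0803 to 0.144). Among 10 endothelial markers 8 passed the filter, ROBO4 rose (12.5%) and PECAM1 fell (12.5%), beside 17.4% and 16.8% of all genes tested. The PECAM1 call was lost without shControl replicate 3 or shCK5-22 replicate 2 or 3 (0.0978 to 0.128). The summed level of the 10 markers was 42.1 to 50.8 CPM in shControl and 53.4 to 67.2 CPM in shCK5-22. Most of it came from CDH5, which was not past the threshold, and ROBO4, with 7668 and 7202 counts over all libraries. Of ROBO4 exon bases 55.6% lie inside an opposite-strand gene. ESAM had 1899 counts, and CLEC14A was at 0.

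MET, the receptor of hepatocyte growth factor, drives scattering and growth of epithelial cells (chromosome 7, 116672390 to 116798386). It had 549.5, 548.4 and 543.4 CPM in shControl and 456.2, 438.1 and 437.6 CPM in shCK5-22. All knockdown libraries were lower, by 0.30 on the log2 scale (SE 0.0278, adjusted p = 2.48e-08). MST1R, its relative that binds macrophage stimulating protein (chromosome 3, 49887002 to 49903873), had 97.86, 96.66 and 101.3 CPM and then 82.63, 82.05 and 79.82 CPM. It fell by 0.27 (SE 0.0348, adjusted p = 2.25e-06), so both members of the subfamily fell. The ligand gene HGF had 0 to 2 counts per library, and MST1 stood at 2.02 and 1.69 CPM (adjusted p = 0.349).

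IGF1R, the receptor of insulin-like growth factors (chromosome 15, 98648539 to 98964530), had 37.39, 37.86 and 40.20 CPM in shControl and 21.33, 19.05 and 21.18 CPM in shCK5-22. The knockdown libraries lay well below the controls, a 1.88-fold lower level (log2 -0.91, SE 0.0563, adjusted p = 5.24e-11). Of its exon bases 63.6% lie inside an opposite-strand gene. INSR, the insulin receptor, had 29.6, 28.8 and 29.8 CPM in shControl and 28.2, 30.1 and 27.9 CPM in shCK5-22, groups that overlap, with a log2 interval from -0.14 to 0.08 (adjusted p = 0.685). IGF1R thus made up 72.8% ± 0.662 of the summed level per kb of the pair in shControl and 59.3% ± 2.55 in shCK5-22 (exact permutation p = 0.1), or 49.3% and 34.7% with all exons as length. INSRR was listed at 0, with all its exons inside another gene. The docking protein gene IRS2, which couples both receptors to PI3 kinase, rose from 20.8 ± 1.12 to 30.7 ± 1.79 CPM (adjusted p = 1.95e-07), and IRS1 stood at 79.0 and 74.5 CPM (adjusted p = 0.0734).

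PTK7, ROR1, ROR2 and RYK take part in WNT signalling at the membrane. PTK7, an inactive kinase of planar cell polarity (chromosome 6, 43076268 to 43161719), had the largest fall among receptors with at least 5 CPM. It had 166.8, 166.2 and 168.1 CPM in shControl and 70.85, 71.50 and 72.53 CPM in shCK5-22. Libraries of a group were almost equal, and the level was 2.33-fold lower (log2 -1.22, SE 0.0317, adjusted p = 4.07e-17). RYK, a co-receptor of WNT ligands, had 61.4, 63.2 and 61.4 CPM in shControl and 63.4, 60 and 58.3 CPM in shCK5-22 (log2 interval -0.12 to 0.05, adjusted p = 0.595).

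ROR1, a receptor of WNT5A (chromosome 1, 63774022 to 64181498), had 20.91, 19.36 and 20.71 CPM and then 18.60, 16.81 and 16.54 CPM. It fell by 0.23 (adjusted p = 0.00872), which missed the threshold without shCK5-22 replicate 3 (0.0524). ROR2 (chromosome 9, 91563091 to 91950162) had 0.541, 0.429 and 0.222 CPM in shControl and 0.675, 0.87 and 0.643 CPM in shCK5-22. It rose by 0.90 on the log2 scale, on 14 to 52 counts (adjusted p = 0.0494). That call was lost with library size only (0.0563), with DESeq2 (0.0674) and when any one library other than shControl replicate 1 was left out (0.0566 to 0.214). Of the ligands, WNT5A stood at 25.9 and 25.6 CPM (adjusted p = 0.861) and WNT5B rose from 20.5 ± 0.455 to 26.9 ± 1.29 CPM (adjusted p = 1.22e-05).

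The discoidin domain receptors bind collagen. DDR1, the epithelial form (chromosome 6, 30876421 to 30900156), had 434.3, 435.5 and 444.1 CPM in shControl and 388.7, 398.0 and 385.8 CPM in shCK5-22. Although every knockdown library was lower, the fall was 1.12-fold (log2 -0.16, SE 0.0274, adjusted p = 7.01e-05), the smallest among the receptors past the threshold. DDR2, the form of connective tissue, had 2.07 ± 0.298 and 2.30 ± 0.269 CPM (adjusted p = 0.537).

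EPH receptors bind ephrins on neighbouring cells and steer cell sorting, adhesion and boundaries. Of 12 genes, 11 were tested, 5 fell, 0 rose and 6 did not pass the test, with a median log2 fold change of -0.26 (all genes tested -0.01). The share lower was 45.5%, beside 16.8% of all genes tested and 22.2% of those with at least 5 CPM. The share higher was 0%, beside 17.4% and 24.8%. The 2 most abundant, EPHA2 and EPHB4, were among those that did not pass. EPHA2 had 597.4, 544.4 and 576.1 CPM and then 588.1, 536.9 and 568.5 CPM (log2 interval -0.10 to 0.06, adjusted p = 0.723). EPHB4 had 143.6, 135.5 and 143.2 CPM in shControl and 141.3, 132.4 and 139.9 CPM in shCK5-22 (log2 interval -0.10 to 0.04, adjusted p = 0.566).

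EPHB3 (chromosome 3, 184561784 to 184582409) had 29.90, 27.17 and 29.27 CPM in shControl and 20.61, 18.30 and 19.91 CPM in shCK5-22. It fell 1.47-fold (log2 -0.55, SE 0.0605, adjusted p = 3.14e-07) with no overlap. EPHA1 (chromosome 7, 143390289 to 143408892) had 24.24, 22.45 and 21.87 CPM and then 16.96, 15.39 and 16.10 CPM. Its level was 1.41-fold lower (log2 -0.50, SE 0.0637, adjusted p = 2.59e-06). EPHB2 (chromosome 1, 22710839 to 22921500), which with EPHB3 positions cells in the gut epithelium, had 108.7, 110.2 and 110.4 CPM and then 91.43, 85.50 and 87.80 CPM. That is a fall by 0.32 (SE 0.0345, adjusted p = 3.17e-07).

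EPHA4 (chromosome 2, 221418027 to 221574202) fell by 0.26, from 19.10, 15.15 and 16.93 CPM to 15.49, 13.05 and 14.12 CPM (adjusted p = 0.0223). Its groups overlapped, and the call was lost without any one of shControl replicates 1 and 3 and shCK5-22 replicates 2 and 3 (0.0673 to 0.137). EPHA10, an inactive kinase (chromosome 1, 37713880 to 37765133), had 64, 47 and 82 counts and then 40, 38 and 30 counts, a fall by 0.87 (adjusted p = 0.0167). It missed the threshold with limma-voom (0.0544) and without shControl replicate 1 (0.082), shControl replicate 3 (0.0979) or shCK5-22 replicate 3 (0.0535). EPHB6, the inactive kinase of the B group, had 18.3, 14.4 and 17.3 CPM in shControl and 15.1, 10.9 and 13.4 CPM in shCK5-22 and missed the threshold (adjusted p = 0.0549). Its adjusted p ran from 2.77e-05 to 0.15 over the alternatives and was below the threshold in 7 of 16. EPHA3, EPHA5 and EPHB1, all under 2.2 CPM in every library, did not pass (adjusted p = 0.973, 0.0802 and 0.906), and EPHA7 had 0 to 3 counts. For EPHB1, 59.4% of exon bases lie inside an opposite-strand gene, so its CPM may understate its level.

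Of 8 ephrin genes 6 were tested, and they went both ways. EFNA5 fell 1.42-fold from 51.2 ± 1.08 CPM (adjusted p = 1.29e-08), and EFNA3 fell from 1.81 to 1.14 CPM (adjusted p = 0.0118), a count that is uncertain because 59.0% of its exon bases lie inside another gene and that missed the threshold without shControl replicate 3 (0.0721). EFNB1, a ligand of EPHB2 and EPHB3, rose from 7.80 ± 0.643 to 12.5 ± 0.295 CPM (1.61-fold, adjusted p = 1.05e-06). For EFNA1, with 25.7 and 26.2 CPM, and EFNB2, with 65.1 and 61.7 CPM, the adjusted p was 0.756 and 0.229.

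**Figure D4:**
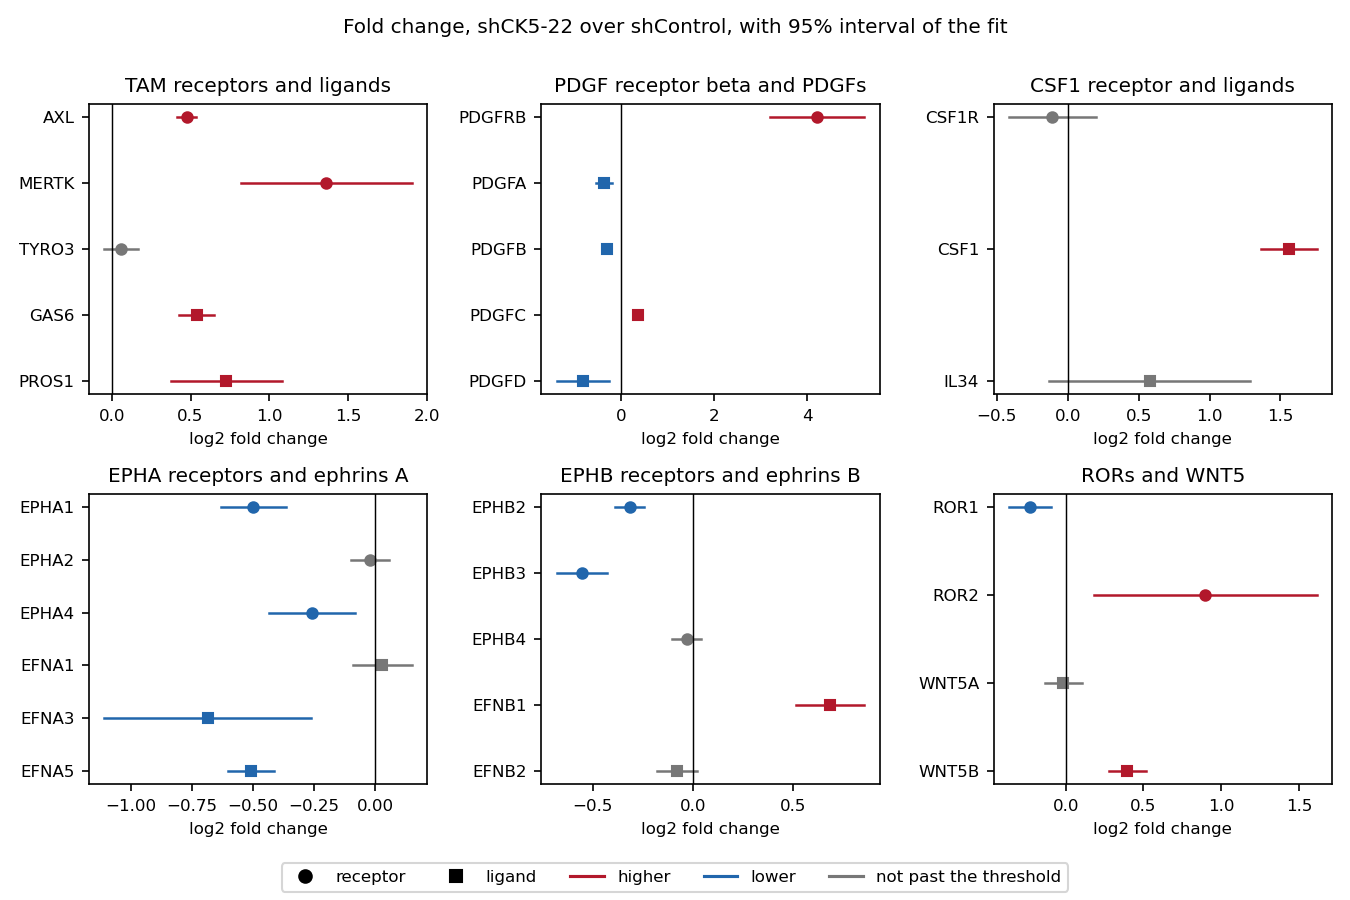
Log2 fold change of shCK5-22 over shControl with the 95% interval of the fit, for receptors (circles) and their ligands (squares) of 6 systems, each panel on its own axis. AXL, MERTK, GAS6 and PROS1 lie above 0 together, CSF1 rises beside a CSF1R near 0, and EFNB1 lies above 0 where EPHB2 and EPHB3 lie below.

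The remaining receptors, known from neurons, neural crest and fusions in tumours, were low. RET had 0.372 and 0.236 CPM (adjusted p = 0.265), ALK 2.08 and 2.30 CPM (adjusted p = 0.53) and NTRK2 0.220 and 0.202 CPM (adjusted p = 0.866). Among the genes around RET, GFRA1 and NRTN changed, both at very low levels. The RET ligand genes ARTN, with 16.6 and 17.4 CPM, and PSPN, with 1.98 and 2.01 CPM, did not pass (adjusted p = 0.475 and 0.93). GDNF was at 0, with all its exon bases inside another gene. GFRA1, the co-receptor through which GDNF acts on RET, had 0, 2 and 2 counts in shControl and 26, 30 and 35 counts in shCK5-22 (log2 4.40, SE 0.635, adjusted p = 1.26e-05), a size that is uncertain at so few control counts. NRTN, a RET ligand, fell from 0.315 ± 0.147 to 0.101 ± 0.0807 CPM (adjusted p = 0.03), which missed the threshold without shControl replicate 2 or 3 or shCK5-22 replicate 1 or 2 (0.0805 to 0.189). NTRK3 had 0 to 6, LTK 2 to 8 and ROS1 0 to 4 counts per library and were not tested. For ROS1, 83.2% of exon bases lie inside another gene, so its low count may understate its level. Of the ALK ligand genes, ALKAL2 had 0.168 and 0.140 CPM (adjusted p = 0.733), and ALKAL1, with 0 to 6 counts per library, was not tested. The growth factor genes PTN and MDK, whose products are also reported as ligands of ALK, moved in opposite directions. PTN had 4.83 and 6.61 CPM and rose by 0.45, and MDK fell from 7.27 ± 0.159 to 4.52 ± 0.482 CPM (1.61-fold, adjusted p = 2.69e-05). NTF3, a ligand of NTRK3, rose from 0.966 to 1.53 CPM (adjusted p = 0.0244), which missed the threshold without shControl replicates 1 or 3 or shCK5-22 replicate 3 (0.052 to 0.161).

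Over the whole list of 57 ligand genes, 39 were tested, of which 13 rose (33.3%) and 9 fell (23.1%), with a median log2 fold change of 0.03. Over all genes tested 17.4% rose and 16.8% fell. Ligands at 0 in all libraries numbered 10, and for 9 of them over 98% of exon bases lie inside another gene, so their zeros are not levels. Among 20 co-receptors and binding regulators 15 were tested, 4 rose (26.7%) and 5 fell (33.3%), with a median of -0.00. LRIG1, a membrane protein that lowers the amount of several receptors, rose 2.31-fold from 9.96 ± 0.505 to 23.01 ± 0.437 CPM (adjusted p = 6.71e-12), with 60.5% of its exon bases inside an opposite-strand gene. Its relative LRIG3 rose by 0.35 (adjusted p = 0.0278), a call lost without shControl replicates 1 or 2 or shCK5-22 replicate 2 (0.0929 to 0.126).

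Adaptors and proximal signalling genes changed in both directions. Of 40 tested, 12 fell (30%) and 7 rose (17.5%), with a median log2 fold change of -0.09. Of all genes tested 16.8% fell and 17.4% rose, and of those with at least 5 CPM 22.2% fell and 24.8% rose, so the share that rose was near the background. SRC, the founding member of the kinase family that acts beside these receptors, fell 1.83-fold from 84.7 ± 3.22 to 46.3 ± 0.971 CPM (adjusted p = 4.16e-13). VAV3, a guanine nucleotide exchange factor, fell by 0.90, the adaptor gene SHC3 by 0.79, and PLCG2, a phospholipase C gamma, by 0.72. Rises were those of SH2B3, an adaptor that restrains signalling, by 0.61, IRS2 by 0.56, PTPN11, the phosphatase SHP2 that promotes RAS signalling, by 0.45 and GRB2, the adaptor that recruits SOS, by 0.15. For SH2B3, 77.5% of exon bases lie inside an opposite-strand gene.

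Phosphatases and ubiquitin ligases, with the SOCS genes, made up a list of 18, of which 12 were higher (66.7%) and 3 lower (16.7%), with a median log2 fold change of 0.21. Beside 17.4% higher and 16.8% lower over all genes tested, or 24.8% and 22.2% at 5 CPM or more, the share higher was above the background and the share lower was not. The list was chosen with earlier results of these data known, so the contrast is a description and not a test. PTPRF, a receptor phosphatase of junctions, rose from 532 ± 7.06 to 833 ± 11.4 CPM (1.57-fold, adjusted p = 9.54e-14). SOCS2, an inhibitor of cytokine and growth factor signalling, rose 2.05-fold from 7.89 ± 0.145 to 16.2 ± 0.816 CPM (adjusted p = 5.23e-10). The ubiquitin ligase genes NEDD4L and NEDD4 rose by 0.65 and 0.40. Those that fell were PTPRJ, a phosphatase of MET and other receptors, by 0.38, and the ligases CBLC and CBLB, which mark active receptors for degradation, by 0.36 and 0.19. The CBLB call (adjusted p = 0.0187) was lost without shControl replicates 1 or 2 or shCK5-22 replicate 3 (0.0613 to 0.117).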

How the data were processed

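The authors deposited 1 table of whole-number read counts per gene symbol for 6 libraries. Per the submitters' processing notes, the tools included cutadapt, STAR, SAMtools and Cufflinks, with build GRCh38. The counting tool, its annotation, strand use and handling of multi-mapping reads were not given in the sources used here. Groups come from the sample titles.

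Of 56505 rows, 27 carried a calendar date in place of a symbol and were left out (0.167% to 0.175% of counts). A floor of 3 counts is 0.0459 to 0.063 CPM. The fit used edgeR 4.0.16 (R 4.3.3): quasi-likelihood test, robust, with TMM scaling and filterByExpr, two-sided p adjusted by Benjamini-Hochberg over the 18008 genes tested, threshold 0.05. Adjusted p values without a tool's name are from edgeR. CPM uses TMM-scaled library sizes, SDs are over 3 libraries, SE is the log2 fold change divided by the root of F, and intervals are 95%. The fit was tested on simulated data. Coordinates and exons come from GENCODE release 29. Taking each strand separately, at most 4.92% of a tested receptor's 50-base windows occur in transcripts of another gene.

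Named are all receptors, KRT5, up to 4 rises and 4 falls of each pathway list with a mean level of 1 CPM or more, and ligands of receptors past the threshold. Other ligands and co-receptors are further examples, chosen after their values were seen. Members and lists were chosen with earlier results of these data known.

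Alternatives were RLE, upper-quartile or no scaling, no filter or a minimum of 1 CPM in 3 libraries, a threshold of 0.01, DESeq2 1.42.0, limma-voom (limma 3.58.1), a replicate block, leaving out each library and, chosen after seeing the data, counts halved.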

Additional observations from a re-analysis of the deposited data

How the results depend on the processing

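Over 16 alternatives, 12 of the 18 receptors past the threshold kept their side of it and their direction wherever they were tested. The 6 others are given with their values above. The filter at 1 CPM removed 10 tested receptors, 3 of them past the threshold, and left 3 receptors higher. At an adjusted p under 0.01, 5 ligand genes were lower. With a replicate block, 6743 genes changed in place of 6153, 5 receptors were higher and 14 lower, and all 18 receptors past the threshold remained so. The labels name no pairing beyond the replicate number. Deviations of same-numbered libraries from their group means had correlations of 0.0164, 0.0517 and -0.00678. Those of differently numbered libraries ran from -0.0547 to 0.0377. With 3 libraries per group, these values cannot settle whether libraries were paired.

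Leaving out 1 library at a time, 4910 to 6185 genes changed. Receptors higher numbered 4 to 5 and lower 9 to 14. Ligands higher numbered 11 to 13 and lower 6 to 10, co-receptors higher 3 to 4 and lower 5 to 6, adaptors higher 5 to 7 and lower 9 to 18, phosphatases and ligases higher 11 to 13 and lower 2 to 3. Log2 fold changes of 6 receptors not past the threshold changed sign when 1 library was left out, and the cause was not tested. They ran from -0.298 to 0.0136 for CSF1R, -0.43 to 0.47 for NTRK2, -0.26 to 0.28 for TEK, -0.057 to 0.0146 for EPHA2, -0.26 to 0.29 for EPHA3 and -0.21 to 0.21 for EPHB1. Counts under about 100 per library limit PDGFRB, MERTK, ROR2 and EPHA10 and leave changes of the receptors under 1 CPM poorly bounded.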
